A study of Mus musculus with 2 samples.

Results

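The genes described here build and empty the lipid droplet, the store of triglyceride inside the fat cell. They are 10 genes taken by name from the 23609 genes of the deposited table, namely the perilipins Plin1 to Plin5, the droplet fusion genes Cidea and Cidec, the lipase genes Pnpla2 and Lipe, and the coactivator gene Abhd5. The P2Y4 KO library was made from RNA pooled from the pericardial adipose tissue (PAT) of 3 C57BL/6J mice lacking the nucleotide receptor P2Y4, and the WT library from RNA pooled from 3 wild-type C57BL/6J mice. All were young adults, with both sexes used at random. PAT is the fat depot around the heart, and in every mouse it was taken 24 h after the left anterior descending artery of the heart (LAD) had been permanently tied off, so that both groups carry an infarct and no PAT of unligated mice enters the comparison. With 1 pooled library per genotype, no difference has a replicate check and no test across mice was possible.

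Values are given as CPM, reads scaled to a library of 1000000, which is the deposited value divided by 20, with the reads behind them. The deposited values correspond to 14885825 reads for P2Y4 KO and 15508820 reads for WT, as recovered from the steps between them. These are the reads behind the gene values and not all reads sequenced, of which the study states a larger number per sample. Ratios were taken between the deposited values, which are rounded up, and between reads where this is said for genes of few reads. The interval after each P2Y4 KO/WT ratio is an exact 95% Clopper-Pearson interval of the reads, which covers counting error only and not the differences between mice or dissections. As in the methods of the study, a gene was considered with CPM above 0.5, here in at least 1 library, and the words higher and lower stand for a 2-fold threshold (ratio 2 or more, and 0.5 or less). The table has no row for the deleted gene P2ry4, and the genotype labels were therefore not checked by its level. The tissue expressed fat cell markers in both libraries, with adiponectin (Adipoq) at 333 CPM in P2Y4 KO and 124 CPM in WT PAT. It also held other cells. The macrophage gene Lyz2 stood at 2486 CPM in P2Y4 KO and 2131 CPM in WT, and 5 mesothelial genes summed to 501 CPM in P2Y4 KO and 1622 CPM in WT, with 4 of them lower. Of 6 endothelial genes 3 were higher and 1 was lower (summed to 143 CPM in P2Y4 KO and 95.55 CPM in WT), and of 6 fibroblast genes none passed the threshold (1879 CPM in P2Y4 KO and 2054 CPM in WT).

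A lipid droplet is a core of triglyceride within a single layer of phospholipid, to which coat proteins bind. Perilipin 1 covers the droplets of mature fat cells and, at rest, holds back lipolysis by binding the ABHD5 protein. When catecholamines raise cyclic AMP, protein kinase A phosphorylates perilipin 1 and hormone-sensitive lipase, ABHD5 is set free to activate the lipase ATGL, and the stored fat is broken down stepwise by ATGL, hormone-sensitive lipase and monoglyceride lipase. The CIDE proteins join droplets to larger ones, and CIDEA is typical of brown and beige fat cells.

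Several of these genes are known targets of the nuclear receptor PPARgamma, so the promoters were read for the half-site AGGTCA that such receptors bind. RefSeq promoter windows of GRCm38.p6 were matched by symbol for 9 of the 10 members, with 12 start sites in all, and no entry was matched for Cidea. Within the 250 bases upstream of the start site, an exact AGGTCA on either strand was found in 3 of the 12 windows, those of Plin5, Plin2 and Abhd5, and in 14.02% of all 32851 windows of that length. The 60 bases around each match are shown, read 5′ to 3′ on the gene's strand, with the half-site in capitals (TGACCT where it lies on the opposite strand) and its position counted from the start site.
Plin5, chr17:56117686-56117745, minus strand, half-site at -170 to -165: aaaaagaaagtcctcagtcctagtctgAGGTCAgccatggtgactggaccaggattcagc
Plin2, chr4:86670245-86670304, minus strand, half-site at -218 to -213: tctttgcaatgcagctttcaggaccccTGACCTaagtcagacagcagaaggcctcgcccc
Abhd5, chr9:122351520-122351579, plus strand, half-site at -69 to -64: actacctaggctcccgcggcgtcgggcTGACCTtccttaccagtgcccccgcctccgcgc

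The 3 genes with this match had P2Y4 KO/WT ratios of 4.496 (Plin5), 1.051 (Plin2) and 1.81 (Abhd5), and the 6 genes without it in this window, such as Plin1 and Cidec, had ratios of 1.28 to 3.80. The match therefore did not sort the members by ratio. The E-box CACGTG was found in 1 of the 12 windows, at Lipe, and in 6.02% of all windows. The CCAAT box was found in 4 of the 12, at Plin2, Plin3, Plin4 and Plin5, and in 33.8% of all windows. The cyclic AMP response element TGACGTCA was found in none of the members' windows and in 1.55% of all windows. All 4 motifs were searched as exact letters on both strands.

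Most droplet and lipolysis genes had higher transcript levels in P2Y4 KO PAT. Of the 10 members, all of which passed the CPM filter, 7 had a ratio of 2 or more and 0 had a ratio of 0.5 or less, where 8.75% of the 18474 genes past the filter were higher and 4.40% were lower. For all 7 genes the whole counting interval lay above 2. The listed genes include none without a read in WT but 919 at 0 in P2Y4 KO. Genes read only in P2Y4 KO are therefore absent from the share of higher genes. The median log2 ratio of the members was 1.46, beside 0.00 over all genes past the filter, and their summed level was 2982 CPM in P2Y4 KO and 1622 CPM in WT PAT. The remaining members, Plin2, Plin3 and Abhd5, lay above 1 but within a factor of 2. A further scale sets the median ratio of 12 mature adipocyte markers to 1, which takes 1.23 from every log2 ratio. On it only Cidea stayed above a factor of 2, and the median over all genes past the filter falls by the same 1.23. The ratios of these markers ran from 1.40 (Lpl) to 27.6 (Lep). How much of the markers came from other cells was not tested. In tissue of mixed cells, fewer cells of a type and less RNA per cell cannot be told apart.

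**Figure D1:**
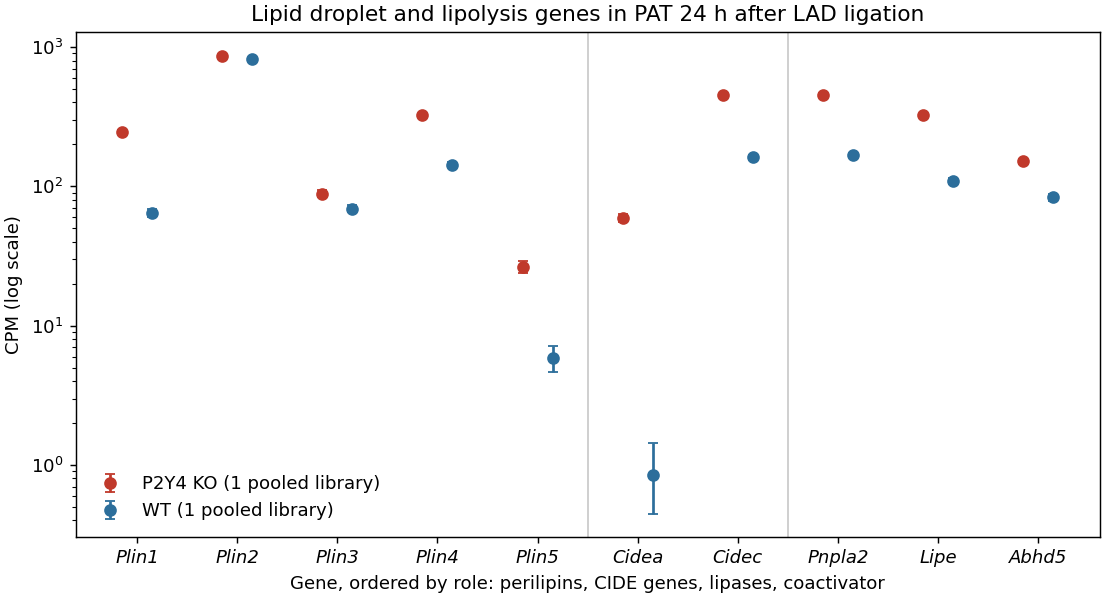
CPM (log scale) of the 10 members in the P2Y4 KO library (red, left of each pair) and the WT library (blue, right of each pair), with bars for the exact 95% Poisson interval of the reads. The points of Plin2 lie closest together, at 859 CPM in P2Y4 KO and 817 CPM in WT, and those of Cidea farthest apart, at 59.3 CPM in P2Y4 KO and 0.85 CPM in WT.

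Among the perilipins, the fat cell forms Plin1 and Plin4 and the oxidative tissue form Plin5 were higher, and the more widely expressed forms Plin2 and Plin3 were not. Plin1, the main droplet coat of mature fat cells, had 244.8 CPM (3644 reads) in P2Y4 KO and 64.4 CPM (998 reads) in WT PAT. Its ratio was 3.80 (3.55 to 4.08), which is rank 416 of 18474 genes ordered by ratio. Plin4, which coats small, newly formed droplets in fat cells, had 323.6 CPM (4816 reads) in P2Y4 KO and 142.6 CPM (2211 reads) in WT. The ratio of Plin4 was 2.27 (2.16 to 2.39), the smallest of the 7 past the threshold. Plin5, which ties droplets to mitochondria in heart, muscle and brown fat, had 26.3 CPM (391 reads) in P2Y4 KO and 5.85 CPM (90 reads) in WT. Its ratio of 4.496 (3.59 to 5.76) was the highest of the perilipins, at the lowest level of the 5, and its interval overlaps that of Plin1.

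Plin2, the perilipin of most cell types and of lipid-laden macrophages, was the most abundant member in both libraries. It had 859 CPM (12784 reads) in P2Y4 KO and 817 CPM (12674 reads) in WT, a ratio of 1.051 (1.03 to 1.08) and rank 7936. Plin3, a perilipin found in the cytosol and on small droplets of many cells, had 88.5 CPM (1317 reads) in P2Y4 KO and 69.15 CPM (1072 reads) in WT, a ratio of 1.28 (1.18 to 1.39). Neither interval reaches 2, so a doubling lies outside counting error in these libraries. Of 7 macrophage markers none passed the threshold in either direction, with ratios between 0.850 (Trem2) and 1.963 (Gpnmb), both genes of lipid-laden macrophages, and they summed to 4252 CPM in P2Y4 KO and 3603 CPM in WT. The reads of Plin2 relative to those of the macrophage gene Cd68 were 2.21 in P2Y4 KO and 2.57 in WT. How much of Plin2 came from macrophages was not tested.

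**Figure D2:**
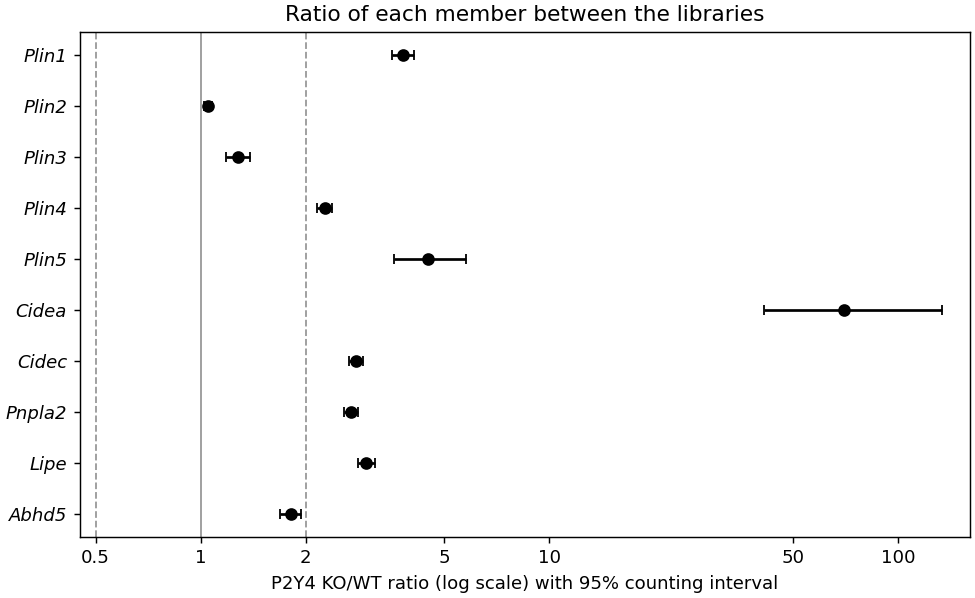
P2Y4 KO/WT ratio of each member (log scale) with its exact 95% counting interval. The solid line marks a ratio of 1 and the dashed lines 0.5 and 2. The intervals of 7 genes lie wholly above 2, that of Abhd5 (1.69 to 1.94) ends just under it, and that of Cidea (41.1 to 133) stands apart from all others.

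The make-up of the perilipin transcripts differed between the libraries. This share does not depend on how the libraries were scaled, and it was computed on CPM per kb of exon so that genes of unequal length could be compared. Plin2 made up 62.8% (62.2 to 63.5) of the summed perilipin level per kb in P2Y4 KO and 79.6% (79.0 to 80.2) in WT PAT. Plin1 made up 13.5% (13.1 to 13.9) in P2Y4 KO and 4.74% (4.45 to 5.03) in WT, and Plin4 14.4% (13.999 to 14.784) in P2Y4 KO and 8.44% (8.10 to 8.79) in WT. Plin5 made up 3.23% (2.92 to 3.55) in P2Y4 KO and 0.951% (0.756 to 1.15) in WT. The share of Plin3 was 6.01% in P2Y4 KO and 6.25% in WT, with overlapping intervals. These intervals are 95% normal approximations from the reads. With the longest coding transcript as the length, Plin2 made up 71.6% in P2Y4 KO and 86.2% in WT, and Plin4 8.84% in P2Y4 KO and 4.93% in WT. Against Plin2 as the common denominator, Plin1 was 3.62 times (3.36 to 3.90) and Plin5 4.31 times (3.42 to 5.42) as high in P2Y4 KO as in WT PAT.

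**Figure D3:**
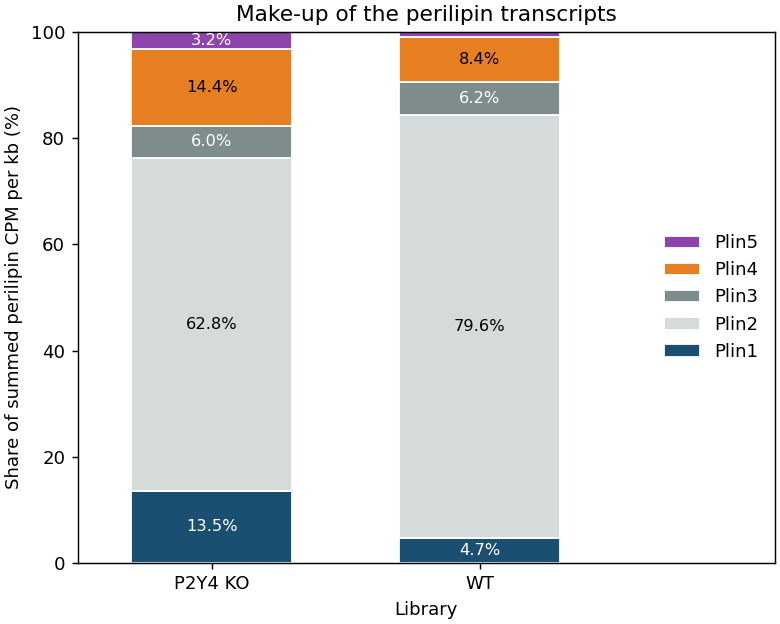
Share of the summed perilipin level (CPM per kb of exon, in %) held by each perilipin, as stacked bars for the P2Y4 KO library (left) and the WT library (right). Plin2 takes 62.8% in P2Y4 KO and 79.6% in WT, and Plin1 takes 13.5% in P2Y4 KO and 4.74% in WT.

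Cidea was nearly undetected in WT PAT and well expressed in P2Y4 KO PAT, while Cidec was present in both. Cidea had 59.3 CPM (882 reads) in P2Y4 KO and 0.85 CPM (13 reads) in WT, a ratio of 69.8 (41.1 to 133) and rank 9 of all genes past the filter. Cidec had 451.8 CPM (6725 reads) in P2Y4 KO and 161.6 CPM (2505 reads) in WT, a ratio of 2.80 (2.67 to 2.93). Cidea thus had 0.131 reads for each read of Cidec in P2Y4 KO and 0.00519 in WT PAT, a factor of 25.3 (14.6 to 43.8) between the libraries. The other family member, Cideb, known from liver and gut, had 24 reads in P2Y4 KO and 23 reads in WT. Its ratio of 1.10 (0.588 to 2.02) shows no difference detectable at this depth.

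Markers of brown and beige fat cells moved with Cidea. All 7 were higher and summed to 363 CPM in P2Y4 KO and 13.6 CPM in WT, with the uncoupling protein gene Ucp1 at 210 CPM in P2Y4 KO and 1.25 CPM in WT. For each read of Ucp1 there were 0.282 reads of Cidea in P2Y4 KO and 0.684 in WT, where the WT value rests on 13 and 19 reads. Cardiomyocyte markers moved in the same direction. All 9 listed were higher and summed to 496 CPM in P2Y4 KO and 7.0 CPM in WT, with Myh6, the cardiac alpha myosin heavy chain, at 1707 reads in P2Y4 KO and 4 reads in WT. Of 8 skeletal muscle markers 6 were higher, with summed levels of 33.2 CPM in P2Y4 KO and 6.70 CPM in WT. Ckm alone held 16.9 CPM of the sum in P2Y4 KO and 0.5 CPM of that in WT. Tnni2 (ratio 1.83) and Actn3 (0.737) did not pass the threshold, and Myh1 and Myh4 had only 1 read each in WT. The brown fat markers Cox8b, Cox7a1 and Ppargc1a are expressed in heart as well. Heart and muscle also express Plin5. Their part in its ratio, and in the ratios of the other members, was not tested.

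The lipase genes were higher to a similar degree, and Abhd5, the coactivator gene of ATGL, less so. Pnpla2, which encodes ATGL, the enzyme of the first step of triglyceride breakdown, had 453.8 CPM (6755 reads) in P2Y4 KO and 168.4 CPM (2611 reads) in WT. Its ratio was 2.69 (2.58 to 2.82). Lipe, which encodes hormone-sensitive lipase, the enzyme of the second step, had 323.7 CPM (4818 reads) in P2Y4 KO and 108.6 CPM (1684 reads) in WT, a ratio of 2.98 (2.82 to 3.15). There were 0.713 reads of Lipe for each read of Pnpla2 in P2Y4 KO and 0.645 in WT, a factor of 1.11 (1.03 to 1.19). Mgll, which encodes monoglyceride lipase, the enzyme of the last step, stood at 230 CPM in P2Y4 KO and 213 CPM in WT, a ratio of 1.08 (1.03 to 1.14). The 3 enzyme genes of this pathway therefore did not share 1 ratio, that of Mgll lying far below the others.

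Abhd5, the activator of ATGL, had 151.2 CPM (2250 reads) in P2Y4 KO and 83.35 CPM (1292 reads) in WT PAT, a ratio of 1.81 (1.69 to 1.94). Of the scalings tried, it passed a factor of 2 only when ribosomal protein genes were set to a ratio of 1. For each read of Abhd5 there were 3.00 reads of Pnpla2 in P2Y4 KO and 2.02 in WT, and 1.62 reads of Plin1 in P2Y4 KO and 0.772 in WT. G0s2, a protein inhibitor of ATGL, had 195 CPM in P2Y4 KO and 71.7 CPM in WT, a ratio of 2.72 (2.54 to 2.92). Relative to it, the reads of Pnpla2 were 2.33 in P2Y4 KO and 2.35 in WT, a factor of 0.990 (0.911 to 1.07). Hilpda, another inhibitor of ATGL, which is induced by hypoxia, had 47.8 CPM in P2Y4 KO and 69.3 CPM in WT, a ratio of 0.690 (0.626 to 0.759) that lies within the threshold.

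Compared per kb of exon, Plin2, Cidec and Pnpla2 were the most abundant members, in this order, in both libraries. Plin2 reached 244.5 CPM per kb in P2Y4 KO and 232.7 in WT, Cidec 243.4 in P2Y4 KO and 87.04 in WT, and Pnpla2 150.3 in P2Y4 KO and 55.8 in WT. In P2Y4 KO PAT the levels of Plin2 and Cidec did not differ beyond counting error, and with the longest coding transcript as the length they were 454.9 and 262.7 CPM per kb. The order below the first 3 genes depends on the length taken. Plin4, Lipe, Cidea and Plin1 followed in P2Y4 KO at 56.0, 55.0, 53.2 and 52.7 CPM per kb, neighbours whose intervals overlap on this length, then Abhd5 and Plin3 at 25.4 and 23.4, which also overlap, and Plin5 at 12.6. In WT PAT the order went on with Plin4 at 24.7, then Lipe and Plin3 at 18.5 and 18.3, then Abhd5 and Plin1 at 13.99 and 13.85, each pair with overlapping intervals. Plin5 at 2.80 and Cidea at 0.762 CPM per kb were the lowest in WT. With the longest coding transcript, Lipe (87.2) and Plin1 (86.9 CPM per kb) stood above Plin4 (56.2) and Cidea (53.2) in P2Y4 KO, and Abhd5 was at 47.9. Cidea was the lowest member in WT and Plin5 the lowest in P2Y4 KO with either length.

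The other genes of the pathway were read from lists of droplet assembly, lipases, inhibitors of ATGL, hormone control of lipolysis, handling of the released fatty acids and glycerol, and regulators. The counts of each list stand beside 8.75% higher and 4.40% lower among all 18474 genes past the filter. Of 18 genes of droplet assembly and growth, 4 were higher and 0 were lower, with a median log2 ratio of 0.12. These are Lpin1, a phosphatidate phosphatase of triglyceride synthesis (ratio 4.68, 3.97 to 5.57), Clstn3 (3.43, 2.73 to 4.39), Adig, which encodes adipogenin (3.17, 2.78 to 3.64), and Fitm1, a droplet budding protein known from muscle, with 18 reads in P2Y4 KO and 1 read in WT (ratio of reads 18.8, 2.96 to 781). The seipin gene Bscl2, which acts where droplets leave the endoplasmic reticulum, had 166.8 CPM in P2Y4 KO and 96.5 CPM in WT (1.73, 1.62 to 1.84). Of 13 other lipase genes only Pnpla3, a close relative of Pnpla2 that is induced by feeding, was higher, with 744 reads in P2Y4 KO and 192 reads in WT (4.03, 3.44 to 4.76), and 0 were lower, with a median log2 ratio of 0.14.

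The hormone pathways that act on these genes' products included receptors that start lipolysis and receptors that restrain it. Of 29 genes of hormone control, 8 were higher and 0 were lower, with a median log2 ratio of 0.48. Adrb3, the beta3-adrenergic receptor that starts lipolysis in rodent fat cells, had 46.8 CPM in P2Y4 KO and 6.35 CPM in WT (7.37, 5.98 to 9.24). Adora1 and Hcar1, receptors for adenosine and lactate that restrain lipolysis, had ratios of 5.44 (4.36 to 6.84) and 4.32 (3.11 to 6.23). Prkar2b, the regulatory subunit of protein kinase A typical of fat, had a ratio of 2.56 (2.33 to 2.80). Its catalytic subunit gene Prkaca stood at 104 CPM in P2Y4 KO and 71.3 CPM in WT, a ratio of 1.46 (1.35 to 1.58).

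Among 17 genes that handle the released fatty acids and glycerol, whose median log2 ratio was 1.03, 9 were higher and 1 was lower. Agpat2, an acyltransferase of triglyceride synthesis, had a ratio of 3.09 (2.91 to 3.28), and Acsl1, which activates fatty acids with coenzyme A, a ratio of 2.62 (2.48 to 2.76). The fatty acid transporter Slc27a1 had a ratio of 2.65 (2.41 to 2.92). Aqp7, the glycerol channel of fat cells, had 106 reads in P2Y4 KO and 30 reads in WT (3.67, 2.43 to 5.72). Aqp3, another glycerol channel and the 1 lower gene, had 34 reads in P2Y4 KO and 116 reads in WT (0.307, 0.202 to 0.451).

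**Figure D4:**
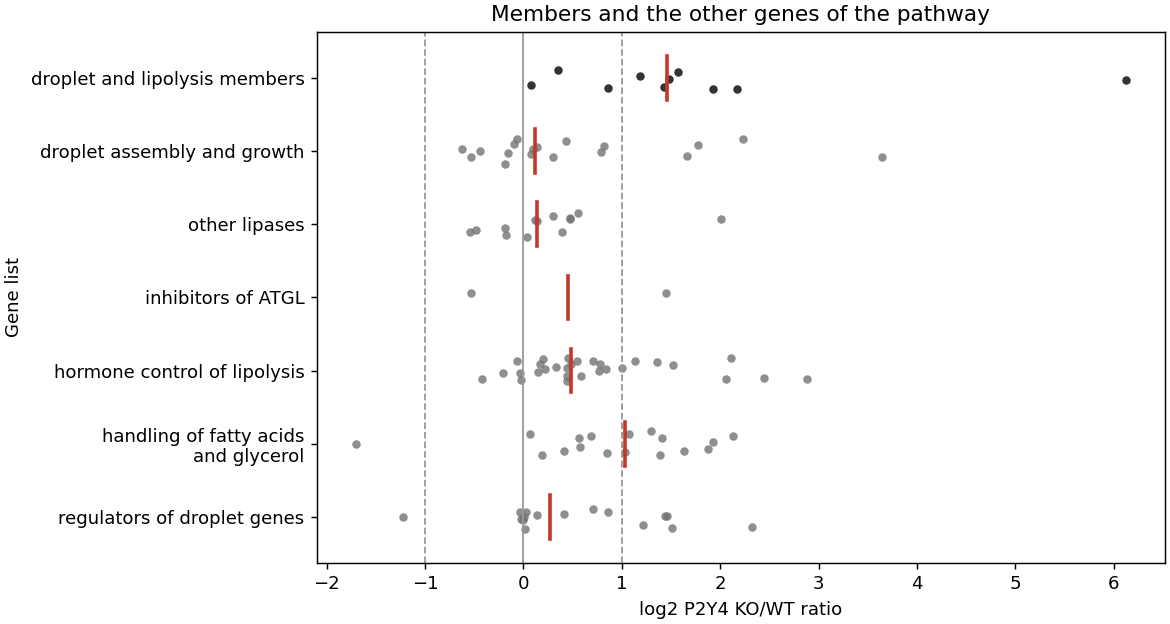
log2 P2Y4 KO/WT ratio of each member (black points, top row) and of each gene of the other lists (grey points), with the median of each list as a red bar, the solid line at 0 and dashed lines at -1 and 1. The members' median is 1.46, and those of the other lists lie between 0.12 (droplet assembly and growth) and 1.03 (handling of fatty acids and glycerol).

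Markers of the mature fat cell moved with the members. Of 12 such genes, none of them a member, 7 were higher and 0 were lower, with a median log2 ratio of 1.23, and they summed to 6468 CPM in P2Y4 KO and 3651 CPM in WT PAT. Leptin (Lep), with 164 reads in P2Y4 KO and 6 reads in WT, had the largest ratio of the list. The abundant markers differed among themselves, with Fabp4 at 1914 CPM in P2Y4 KO and 1293 CPM in WT (1.48, 1.45 to 1.51) and Gpd1 at 794.5 CPM in P2Y4 KO and 249.95 CPM in WT (3.18, 3.07 to 3.30). Relative to Adipoq, the reads of Plin1 were 0.735 in P2Y4 KO and 0.520 in WT, a factor of 1.41 (1.30 to 1.54), and those of Plin5 0.0788 in P2Y4 KO and 0.0469 in WT, a factor of 1.68 (1.33 to 2.13). With the marker median set to 1, the log2 ratios were 0.69 for Plin1, 0.94 for Plin5, 0.25 for Cidec, 0.20 for Pnpla2 and 0.34 for Lipe, while Plin4 (-0.050), Abhd5 (-0.37), Plin3 (-0.88) and Plin2 (-1.16) lay below 0. With only the 4 most abundant of these markers (Cfd, Fabp4, Gpd1, Lpl) set to 1, Plin1, Plin5 and Cidea stayed above a factor of 2. How many of the members lie past a factor of 2 depends on the markers taken.

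**Figure D5:**
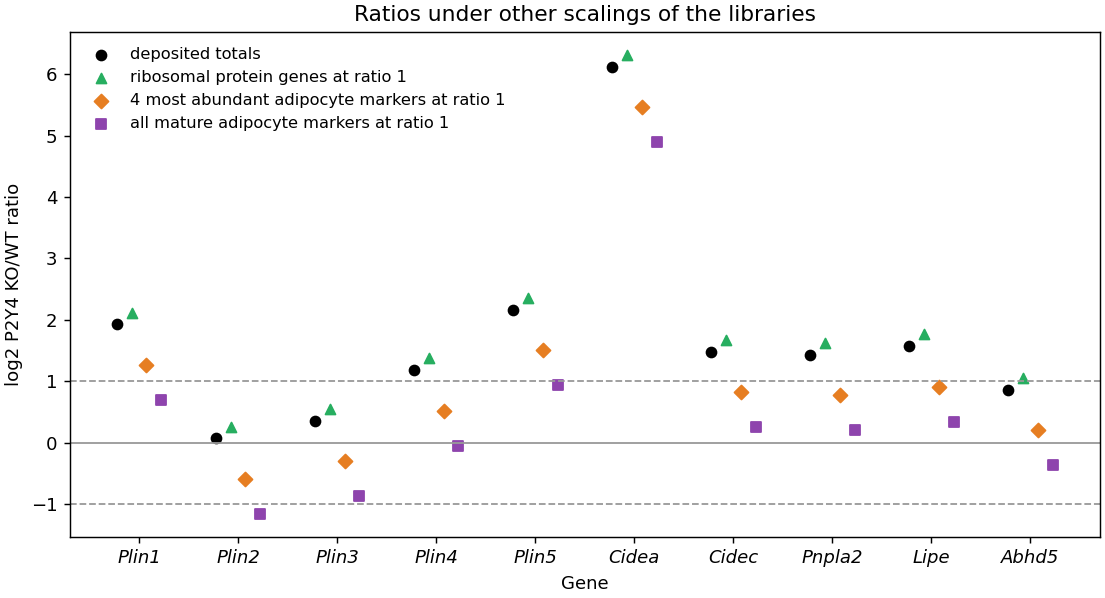
log2 P2Y4 KO/WT ratio of each member under 4 scalings of the libraries: deposited totals (black circles), ribosomal protein genes at ratio 1 (green triangles), the 4 most abundant adipocyte markers at ratio 1 (orange diamonds) and all 12 adipocyte markers at ratio 1 (purple squares), with dashed lines at -1 and 1. Cidea lies above 1 under every scaling shown, and Plin2 runs between 0.26 on the ribosomal scale and -1.16 on the adipocyte scale.

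In GRCm38 with the GENCODE M21 annotation all 10 members are protein-coding genes. Their identifiers in the table are ENSMUSG00000030546 (Plin1), ENSMUSG00000028494 (Plin2), ENSMUSG00000024197 (Plin3), ENSMUSG00000002831 (Plin4), ENSMUSG00000011305 (Plin5), ENSMUSG00000024526 (Cidea), ENSMUSG00000030278 (Cidec), ENSMUSG00000025509 (Pnpla2), ENSMUSG00000003123 (Lipe) and ENSMUSG00000032540 (Abhd5). Plin4 (chromosome 17, 56100591 to 56109803) and Plin5 (chromosome 17, 56111601 to 56117596) are neighbours on the minus strand with 1797 bases between them, and Plin3 (chromosome 17, 56277476 to 56292873) lies 159879 bases from Plin5 on the same strand. These 3 neighbours had ratios of 2.27, 4.496 and 1.28, whose intervals do not overlap. Plin1 (79720218 to 79732903), Lipe (25379527 to 25398710) and Pnpla2 (141455198 to 141460743) lie far apart on chromosome 7, Plin2 on chromosome 4 (86648386 to 86670060), Cidec on chromosome 6 (113424634 to 113435760), Abhd5 on chromosome 9 (122351608 to 122381524) and Cidea on chromosome 18 (67343604 to 67367785). Exons of the opposite-strand genes 4732471J01Rik and A730085K08Rik overlap those of Lipe by 918 bases and of Abhd5 by 950 bases. 4732471J01Rik had 1589 reads in P2Y4 KO and 525 reads in WT, a ratio of 3.15 close to that of Lipe, and A730085K08Rik 320 reads in P2Y4 KO and 244 reads in WT (1.37). The library kit keeps the strand, but the strand setting of the counting is not given in the sources used here, so reads from these overlaps cannot be told apart.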

How the data were processed

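PAT was collected 24 h after LAD ligation and sequenced as 1 library per genotype, P2Y4 KO and WT, each of RNA pooled from 3 mice. Libraries were grouped by the genotype label. Per the submitters' notes and the study's methods, reads were trimmed with Trimmomatic, aligned with STAR to GRCm38.p4 and counted with HTSeq. The sources used here do not give tool versions or the strand setting. For each gene the table holds a deposited signal with the form of reads that the authors scaled to 20000000 per library and rounded up, a step read from the values. Genes without a read in WT are not analysed here. Reads were recovered from the steps between values, and 99.84% of the P2Y4 KO and 99.89% of the WT values equalled a whole number of reads on these steps, with no tolerance. The design expected counts or CPM, so CPM was taken as the deposited value divided by 20. The authors' ratio columns and their table of regulated genes were not used.

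Ratios were computed without a pseudocount and given exact intervals (scipy 1.17.1, Python 3.11.15). The recovery and the intervals were tested on data simulated with the same scaling and rounding up, and with counting error only. Such data cannot show that the deposited values have this form. Exon lengths were unions of GENCODE M21 exons, and promoters came from RefSeq (GRCm38.p6). Intervals of shares and of ratios between genes are normal approximations. The members and the 14 gene lists were chosen with earlier results of these data known. Named are all members, up to 4 genes past the threshold per list with the interval bound farthest from 1, and defining markers. Other genes, among them Mgll, Hilpda, Cideb, Bscl2, Prkaca, Aqp3, Fabp4, Gpd1, Trem2, Gpnmb and the gene pairs set against each other, were chosen after their values were seen. Alternatives were other scalings, filters, 0.5 CPM added to both libraries, recovered reads and whole intervals past the threshold.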

Additional observations from a re-analysis of the deposited data

How the results depend on the processing

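No paired analysis was possible because each genotype has 1 library, and no library could be left out. The count of 7 members higher and 0 lower was the same with TMM scaling, median-of-ratios size factors, totals without the 100 most abundant genes or without muscle genes, 0.5 CPM added, CPM above 0.5 in both libraries, no filter, or the whole interval past the threshold, and under each of these scalings and the added CPM all 10 member ratios stayed within their counting intervals. The scalings named so far moved every log2 ratio by at most 0.011, and all 10 members passed every filter. Neither could therefore change the count. Setting 81 ribosomal protein genes to a ratio of 1 adds 0.19 to every log2 ratio. This gave 8 members higher, a median of 1.65 over the members and 0.64 over the 94 genes of the other lipid lists (0.45 on the deposited totals). Setting the 12 adipocyte markers to 1 takes away 1.23 and gave 1 member higher (Cidea), 1 lower (Plin2), a median of 0.22 over the members and -0.050 for Plin4. For the other lists it gave 4 genes higher and 37 lower, with a median of -0.78, in place of 28 higher and 2 lower. On this scale the median over all genes past the filter, 0.00 on the deposited totals, also falls by 1.23. It then lies past the threshold for lower. The share of all genes past the threshold on this scale was not counted. Cd36, Acsl1, Pck1, Fabp4 and Adig belong both to the other lipid lists and to the 12 markers. Added after seeing the data, the 4 most abundant adipocyte markers set to 1 took away 0.66, and the longest coding transcript as length kept Plin2, Cidec and Pnpla2 as the 3 highest members in both libraries. Depth limits Cidea in WT (13 reads) and Plin5 in WT (90 reads) most.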

Other observations

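Regulators known to act on droplet genes were mostly within a factor of 2. Of 16 such genes, 5 had higher levels in P2Y4 KO PAT and 1 a lower level, and the median log2 ratio was 0.27. Pparg, the nuclear receptor that drives fat cell differentiation, had 55.0 CPM in P2Y4 KO and 19.4 CPM in WT (ratio 2.84, 2.49 to 3.25). Epas1, which encodes the hypoxia-inducible factor 2 alpha, had 96.3 CPM in P2Y4 KO and 41.4 CPM in WT (2.33, 2.12 to 2.56), while Hif1a stood at 294.9 CPM in P2Y4 KO and 302.3 CPM in WT. Ppargc1a, a coactivator of mitochondrial and thermogenic genes, had 37 reads in P2Y4 KO and 7 reads in WT (ratio of reads 5.51, 2.42 to 14.6). Its relative Ppargc1b (2.71) and Ppara (2.75), a receptor for fatty acids in oxidative tissues, complete the higher genes and were named after their values were seen. Klf9, a target of the glucocorticoid receptor, was the lower gene, at 34.6 CPM in P2Y4 KO and 80.7 CPM in WT (0.428, 0.386 to 0.475). Cebpa, another driver of fat cell differentiation, stood at 167.2 CPM in P2Y4 KO and 102.3 CPM in WT, under the threshold.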
